A study of Mus musculus with 6 samples.

Results

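A set of 10 genes of NF-kB subunits, IkB family proteins and feedback was followed in 4T1-LM3, a cell line of murine mammary carcinoma. All samples had received conditioned medium (CM). The genes were picked by symbol, with cytokines left out. They comprise 4 subunits of the transcription factor (Rela, Nfkb1, Relb and Nfkb2) and 3 proteins of the IkB family (Nfkbia, Nfkbie and Nfkbiz). The other 3 are further feedback genes (Tnfaip3, Birc3 and Traf1). All 10 were found among the 16426 genes measured. The Tdo2high MFs CM group holds 3 samples given medium from matrix fibroblasts (MFs) with high Tdo2, the gene of the tryptophan-degrading enzyme tryptophan 2,3-dioxygenase, and the Control CM group holds 3 samples given a control medium. The study asked how such fibroblasts affect disseminated tumour cells. The labels name no cell source for the control medium, no exposure time and no separate cultures behind the replicates, and each p-value therefore reflects sample-to-sample spread alone, possibly of technical origin. In bulk RNA, fewer cells expressing a gene and less of its RNA per cell cannot be told apart. An effect of Tdo2 itself cannot be told apart from any other difference between the media.

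NF-kB is a family of dimeric transcription factors held in the cytoplasm by IkB proteins. In the canonical route, receptors such as those for TNF and interleukin 1 activate the IKK kinase complex, which marks IkB alpha for destruction and frees dimers of RelA and p50; in the non-canonical route the kinase NIK leads to processing of p100 into p52, the partner of RelB. NF-kB in turn drives the genes of several of its own brakes, among them Nfkbia and Tnfaip3, which makes their mRNA a common readout of the pathway.

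Levels are given in FPKM, a measure of fragments that takes account of how long a transcript is and how large its library, and differences as log2 fold changes of FPKM + 1, Tdo2high MFs CM over Control CM. These understate the change of weakly expressed genes. A gene was called when its adjusted p in limma was under 0.05. The test covered the 10804 genes that reached 1 FPKM in 3 or more libraries, and each of the 10 members was among them. FPKM sums lay between 444217 and 445209 in the Tdo2high MFs CM libraries and between 438603 and 447415 in the Control CM libraries. Sequencing depth is unknown. Of 8 epithelial markers 6 stayed below 1 FPKM in every library, with Cdh1 at 0.02 FPKM at most and Epcam at 0.11 FPKM at most, so the defining epithelial adhesion markers of a carcinoma were near 0, while the keratins Krt8 and Krt18 were at 264 FPKM or more. Summed levels of 7 fibroblast markers ran from 80.8 to 82.7 FPKM with Tdo2high MFs CM and from 80.5 to 82.4 FPKM with Control CM, and 4 of them, Col1a1 and Col1a2 included, stayed below 1 FPKM. Of the other fibroblast markers, Dcn fell to 10.86 ± 0.935 FPKM with Tdo2high MFs CM, against 15.5 ± 0.516 FPKM with Control CM (log2 fold change -0.48, adjusted p = 0.00114 by limma). Pdgfra rose to 47.3 ± 0.194 FPKM with Tdo2high MFs CM, against 41.9 ± 0.215 FPKM with Control CM (0.17, adjusted p = 0.00518 by limma). Pdgfrb was not called, at 23.1 ± 0.400 FPKM with Tdo2high MFs CM and 23.6 ± 0.537 FPKM with Control CM (-0.03, adjusted p = 0.644 by limma). Col3a1 and Postn were not among the genes measured. Summed levels of 6 myeloid markers ran from 15.7 to 16.8 FPKM with Tdo2high MFs CM and from 10.6 to 12.0 FPKM with Control CM; S100a8 was the called gene among them (log2 fold change 1.03), and the defining markers Lyz2, Csf1r and Itgam did not pass 0.1 FPKM. Cd14, also among the myeloid markers, averaged 8.82 ± 0.971 FPKM with Tdo2high MFs CM and 6.997 ± 1.098 FPKM with Control CM. It was not called (log2 fold change 0.30, adjusted p = 0.0960 by limma). Cd68 did not pass 2.13 FPKM and was not called. Of 7 lymphocyte and endothelial markers 6 stayed below 1 FPKM in every library. Eng, the remaining marker, averaged 52.9 ± 0.754 FPKM with Tdo2high MFs CM and 55.2 ± 0.283 FPKM with Control CM. Eng was not called (-0.06, adjusted p = 0.2135 by limma). The part of any other cell type in the results was not tested.

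Of the members, 1 fell and 9 did not pass the threshold. Tnfaip3, which encodes A20, a ubiquitin-editing enzyme that ends NF-kB signalling, fell to 4.45 ± 0.226 FPKM with Tdo2high MFs CM, against 6.01 ± 0.260 FPKM with Control CM (SD, n = 3 each). The 4 subunits had lower values in every Tdo2high MFs CM library than in any Control CM library, by small amounts that missed the threshold. Nfkbia, the textbook feedback gene, had nearly equal means in both media. Nfkbiz was higher in every Tdo2high MFs CM library and also missed the threshold. Of the 10 members, 0 were called higher and 1 lower, where limma called 3.35% of all tested genes higher, 4.06% lower and 7.41% in either direction. At an unadjusted p under 0.05 the members' counts were 1 higher and 4 lower, where 9.68% of all tested genes were higher and 14.05% lower at that threshold. The groups did not overlap in 6 of the 10, against 29.2% of all tested genes. The members' median log2 fold change was -0.04, and that of all tested genes was -0.01.

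**Figure D1:**
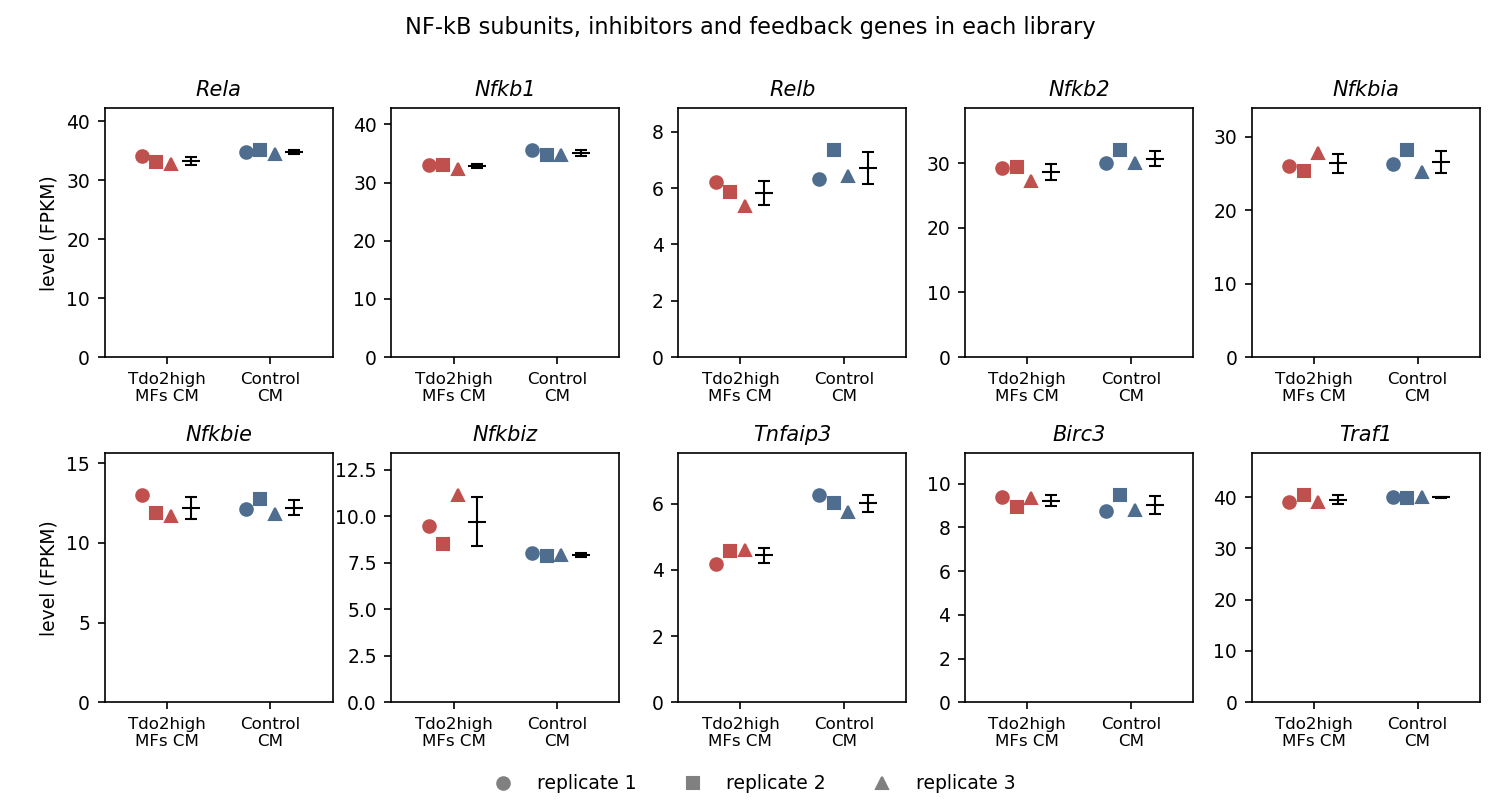
Level in FPKM (vertical axis, from 0) of each of the 10 members in the 3 Tdo2high MFs CM libraries (red, left) and the 3 Control CM libraries (blue, right); marker shapes give the replicate and black bars the mean and SD. Tnfaip3 sits between 4.19 and 4.60 FPKM with Tdo2high MFs CM and between 5.75 and 6.27 FPKM with Control CM, while Nfkbia, Nfkbie, Birc3 and Traf1 overlap.

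FPKM is scaled by transcript length, which lets levels be set side by side between genes. Over all 6 libraries Traf1 stood highest, at 39.8 ± 0.587 FPKM (SD, n = 6), followed by Rela at 34.03 ± 0.959 FPKM and Nfkb1 at 33.9 ± 1.28 FPKM. The ranges of Rela and Nfkb1 overlapped. Nfkb2, at 29.7 ± 1.58 FPKM, overlapped in range with Nfkbia, at 26.5 ± 1.26 FPKM. A clear step followed to Nfkbie, at 12.2 ± 0.540 FPKM. Birc3, at 9.12 ± 0.331 FPKM, and Nfkbiz, at 8.81 ± 1.298 FPKM, overlapped. Relb, at 6.26 ± 0.664 FPKM, and Tnfaip3, at 5.23 ± 0.882 FPKM, came last, and their ranges over both media overlapped although Tnfaip3 was the lower of the pair in each library. These SDs hold the difference between media as well as the spread between replicates.

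Among the subunits, Rela encodes RelA (p65), the main activating partner of canonical dimers. It had 34.01, 33.09 and 32.73 FPKM in Tdo2high MFs CM libraries 1 to 3, against 34.83, 35.16 and 34.36 FPKM in Control CM libraries 1 to 3. The highest of the treated values lay just below the lowest control value, and the log2 fold change was -0.06 (95% interval -0.13 to 0.01, adjusted p = 0.247 by limma). Nfkb1, which encodes p105, the precursor of the p50 subunit and itself an IkB-like inhibitor, had 33.04, 33.05 and 32.37 FPKM with Tdo2high MFs CM, against 35.64, 34.75 and 34.73 FPKM with Control CM. Again no treated library reached a control one, at a log2 fold change of -0.09 (95% interval -0.16 to -0.03, adjusted p = 0.0911 by limma).

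The non-canonical subunits gave the same order of groups with a wider spread. Relb, the partner of p52, had 6.21, 5.85 and 5.37 FPKM with Tdo2high MFs CM, against 6.32, 7.36 and 6.42 FPKM with Control CM. The nearest libraries of the 2 groups lay 6.21 against 6.32 FPKM, and the log2 fold change was -0.18 (95% interval -0.33 to -0.03, adjusted p = 0.151 by limma). Nfkb2, which encodes p100, both an inhibitor and the precursor of p52, had 29.32, 29.42 and 27.19 FPKM with Tdo2high MFs CM, against 30.06, 32.10 and 29.98 FPKM with Control CM. Its log2 fold change was -0.10 (95% interval -0.19 to -0.01, adjusted p = 0.189 by limma). Replicate 3 of Tdo2high MFs CM was the lowest of the 6 libraries for all 4 subunits and for 6 of the 10 members. Replicate 2 of Control CM was the highest for Rela, Relb and Nfkb2 and for 5 of the 10 members, and it also had the largest FPKM sum. The log2 fold change of Relb was -0.13 without that Tdo2high MFs CM library and -0.12 without that Control CM library, and that of Nfkb2 was -0.06 without the Tdo2high MFs CM library and -0.07 without the Control CM library. Rel, the gene of c-Rel and the fifth member of the family, which was not in the chosen set, was weak in both media, at 1.32 ± 0.117 FPKM with Tdo2high MFs CM and 1.28 ± 0.150 FPKM with Control CM (log2 fold change 0.03, adjusted p = 0.872 by limma).

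The summed level of the 5 subunit genes, Rel included, was 104, 103 and 99.0 FPKM with Tdo2high MFs CM, against 108, 111 and 107 FPKM with Control CM, with no overlap. This separation follows from Rela, Nfkb1, Relb and Nfkb2, each without overlap in the same direction, and is no further result. Rela made up 32.7 ± 0.416% of that sum with Tdo2high MFs CM and 32.1 ± 0.245% with Control CM (SD, n = 3 each), with no overlap between groups (32.24 to 33.07% with Tdo2high MFs CM and 31.78 to 32.23% with Control CM). Nfkb1 held 32.2 ± 0.475% with Tdo2high MFs CM and 32.3 ± 0.792% with Control CM, and Nfkb2 held 28.1 ± 0.599% with Tdo2high MFs CM and 28.3 ± 0.643% with Control CM. Relb held 5.70 ± 0.272% of the sum with Tdo2high MFs CM and 6.17 ± 0.427% with Control CM, with overlapping groups. These shares are a description, with no test.

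None of the 3 IkB genes passed the threshold in limma. Nfkbia, which encodes IkB alpha, the inhibitor that is destroyed and then made again in each round of canonical signalling, had 26, 25.33 and 27.74 FPKM with Tdo2high MFs CM, against 26.21, 28.22 and 25.19 FPKM with Control CM. The groups overlapped almost completely. Its log2 fold change of -0.01 had a 95% interval of -0.12 to 0.10 (adjusted p = 0.933 by limma). Nfkbie, the gene of IkB epsilon, had 13.01, 11.86 and 11.71 FPKM with Tdo2high MFs CM, against 12.10, 12.72 and 11.79 FPKM with Control CM. Its groups overlapped as well, at a log2 fold change of -0.0019 (95% interval -0.11 to 0.11, adjusted p = 0.987 by limma). Nfkbiz encodes IkB zeta, an atypical nuclear member of the family that acts with p50 to switch on a subset of secondary response genes. It had 9.48, 8.5 and 11.14 FPKM with Tdo2high MFs CM, against 8.0, 7.83 and 7.90 FPKM with Control CM. The groups did not overlap, but the 3 treated libraries spread widely (SD 1.34 FPKM) while the controls were tight (SD 0.0854 FPKM). The log2 fold change was 0.26 (95% interval 0.09 to 0.43, adjusted p = 0.0731 by limma). It was 0.34 without Tdo2high MFs CM replicate 2, a fit in which the gene was called (adjusted p = 0.0288), and 0.16 without replicate 3 of that medium (adjusted p = 0.163); over all alternatives the adjusted p ran from 0.0288 to 0.192.

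Of the other IkB genes, Nfkbib (IkB beta) averaged 11.6 ± 0.868 FPKM with Tdo2high MFs CM and 12.0 ± 0.654 FPKM with Control CM. Bcl3, an atypical nuclear IkB protein, averaged 5.62 ± 0.325 FPKM with Tdo2high MFs CM and 5.90 ± 0.941 FPKM with Control CM. Of the 5 genes listed as other subunits and IkB proteins, 4 were tested and none was called by limma, where 7.41% of all tested genes were. At an unadjusted p under 0.05 in limma there were also 0 in either direction, beside 9.68% higher and 14.05% lower over all tested genes. The list's median log2 fold change was -0.05.

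Tnfaip3 was the member with the largest difference. It had 4.19, 4.56 and 4.60 FPKM in Tdo2high MFs CM libraries 1 to 3, against 6.27, 6.01 and 5.75 FPKM in Control CM libraries 1 to 3. The 2 sets of libraries were separated by more than the range within either of them. The log2 fold change was -0.36 ± 0.06 (SE; 95% interval -0.49 to -0.24; adjusted p = 0.00501 by limma), and the ratio of mean levels was 0.74. The call held in all 16 alternative settings, with log2 fold changes between -0.43 and -0.33 and adjusted p between 0.00403 and 0.0299. Birc3, the gene of the ubiquitin ligase cIAP2, had 9.41, 8.94 and 9.34 FPKM with Tdo2high MFs CM, against 8.74, 9.49 and 8.80 FPKM with Control CM. The groups overlapped, and the log2 fold change was 0.03 (95% interval -0.07 to 0.14, adjusted p = 0.729 by limma). Birc3 has a close neighbouring paralog, Birc2, that can share reads with it, so its value is uncertain. Traf1, an adaptor that binds TNF receptor complexes, had 39.07, 40.46 and 39.00 FPKM with Tdo2high MFs CM, against 40.05, 39.89 and 40.04 FPKM with Control CM. Its log2 fold change was -0.02 (95% interval -0.08 to 0.05, adjusted p = 0.764 by limma). These intervals bound the difference of Birc3 and Traf1 but do not show that the media act alike on them.

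**Figure D2:**
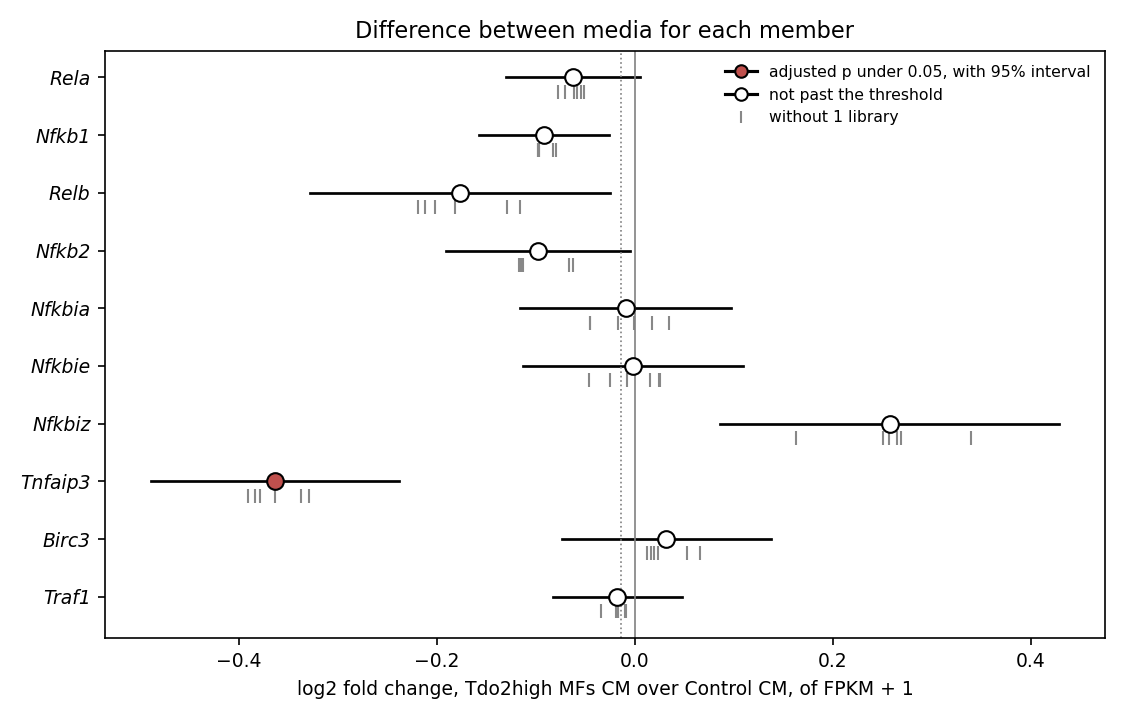
Log2 fold change (horizontal axis) of each member, Tdo2high MFs CM over Control CM, with its 95% interval; the filled point passed the threshold, grey ticks are the fits that each leave out 1 library, and the dotted line is the median of all tested genes (-0.01). Tnfaip3, at -0.36, is the only filled point, and the 4 subunits lie between -0.18 and -0.06.

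Promoter windows from RefSeq (GRCm38.p6), from 250 bases before to 50 bases after a transcription start, were found for 7 of the 10 members. The kappa B consensus, the degenerate motif of 10 bases bound by NF-kB dimers, was searched on both strands. It matched in the windows of 4 of the 7 genes, Tnfaip3, Nfkbia, Nfkb2 and Nfkbie, where 5.14% of the 27025 genes with a window held a match, and 4.51% of all 32851 windows. The windows of Rela, Birc3 and Traf1 held none, which says only that these letters are not in these windows. Relb, Nfkb1 and Nfkbiz were not searched. The windows of the 4 genes are printed because the called gene, Tnfaip3, and 3 members that were not called all hold the motif; whether their differences between media differ from each other was not tested. Capitals mark the matches, and each sequence runs 5′ to 3′ on the gene's own strand.
Tnfaip3, chr10:19015361-19015660, minus strand: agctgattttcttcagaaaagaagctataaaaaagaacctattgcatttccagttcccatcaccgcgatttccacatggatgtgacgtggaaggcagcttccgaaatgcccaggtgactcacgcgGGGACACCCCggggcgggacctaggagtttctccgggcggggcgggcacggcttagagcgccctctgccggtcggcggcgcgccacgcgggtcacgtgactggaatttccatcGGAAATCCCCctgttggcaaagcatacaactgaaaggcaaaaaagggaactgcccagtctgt
Nfkbia, chr12:55492598-55492897, minus strand: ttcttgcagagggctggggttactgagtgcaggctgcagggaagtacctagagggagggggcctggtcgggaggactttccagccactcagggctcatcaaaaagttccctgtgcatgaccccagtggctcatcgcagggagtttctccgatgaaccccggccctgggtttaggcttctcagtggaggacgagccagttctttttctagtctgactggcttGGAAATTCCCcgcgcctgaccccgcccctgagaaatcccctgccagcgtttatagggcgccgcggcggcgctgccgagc
Nfkb2, chr19:46304487-46304786, plus strand: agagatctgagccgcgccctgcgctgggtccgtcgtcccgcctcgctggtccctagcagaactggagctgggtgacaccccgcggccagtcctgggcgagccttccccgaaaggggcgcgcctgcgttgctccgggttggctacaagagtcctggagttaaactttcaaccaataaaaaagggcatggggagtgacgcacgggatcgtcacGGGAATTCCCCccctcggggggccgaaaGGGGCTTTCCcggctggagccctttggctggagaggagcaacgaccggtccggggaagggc
Nfkbie, chr17:45555450-45555749, plus strand: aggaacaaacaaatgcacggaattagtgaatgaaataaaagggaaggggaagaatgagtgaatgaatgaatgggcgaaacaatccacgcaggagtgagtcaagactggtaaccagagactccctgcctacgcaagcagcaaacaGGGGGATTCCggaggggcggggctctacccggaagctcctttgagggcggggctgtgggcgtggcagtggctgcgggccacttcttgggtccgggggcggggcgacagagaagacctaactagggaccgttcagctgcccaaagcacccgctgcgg

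In the Tnfaip3 window the matches began 125 and 12 bases before the start, and a second window at a more downstream start of the gene held none. The match of Nfkbia began 29 bases before the start and that of Nfkbie 106 bases before it. Nfkb2 had 3 matches in the printed window, of which 2 overlap in GGGAATTCCCC. The 2 further windows, at starts downstream of the printed one, held 2 and 1 matches, with 1 match shared where those windows overlap. The RefSeq annotation begins Nfkb2 further upstream, at 46300994, outside all of its windows, and that start was not searched. A match is a description of the letters and no evidence that a factor was bound in these cells.

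**Figure D3:**
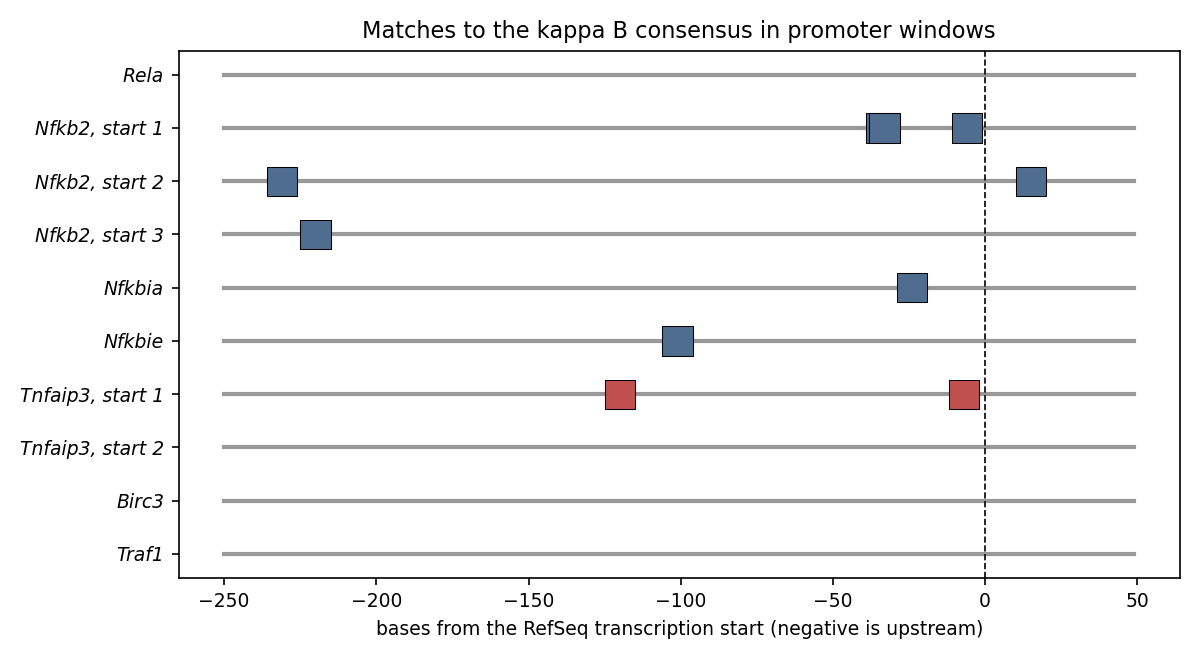
Matches to the kappa B consensus along the promoter windows of the 7 members with one, in bases from the transcription start (dashed line). Boxes are matches, red for Tnfaip3 and blue for other genes. Genes with several windows have a row for each, numbered from the most upstream window. Matches lie in windows of Nfkb2, Nfkbia, Nfkbie and Tnfaip3, and none lie in those of Rela, Birc3 and Traf1.

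On GRCm38, by the RefSeq annotation, Tnfaip3 lies on chromosome 10 from 19000910 to 19015410, Nfkbia on chromosome 12 from 55489409 to 55492647 and Nfkbiz on chromosome 16 from 55811375 to 55838954. Rela (5637442 to 5648134) and Nfkb2 (46300994 to 46312400) both lie on chromosome 19. Exons of Nfkb2 overlap exons of Psd and of a long non-coding RNA, AC114539.1, on the opposite strand in GENCODE M21. The level of that RNA was not analysed here. Psd did not exceed 2.80 FPKM in any library, and whether counting used the strand is not given in the sources used here.

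Upstream of the members, of 20 genes listed as receptors and ligands, 10 were tested, 2 rose and 1 fell by limma, with a median log2 fold change of 0.05. Over all tested genes limma called 3.35% higher and 4.06% lower. At an unadjusted p under 0.05 in limma 4 of the 10 were higher (40%) and 1 lower (10%), beside 9.68% and 14.05% over all tested genes. No test over the list was run. Il1r1, the signalling receptor of interleukin 1, rose to 53.9 ± 1.098 FPKM with Tdo2high MFs CM, against 46.6 ± 1.34 FPKM with Control CM (log2 fold change 0.21, adjusted p = 0.00471). Tnfrsf12a, which encodes Fn14, the receptor of TWEAK, fell to 49.8 ± 2.28 FPKM with Tdo2high MFs CM, against 57.9 ± 2.34 FPKM with Control CM (-0.21, adjusted p = 0.0132). Its call ended without Tdo2high MFs CM replicate 2 (adjusted p = 0.0505) and with no filter on low values (0.0571). Tnfrsf1a, the main TNF receptor, rose to 52.3 ± 2.30 FPKM with Tdo2high MFs CM, against 46.2 ± 2.59 FPKM with Control CM (0.18, adjusted p = 0.0445). Tnfrsf1a lost its call in 9 of 16 settings, including the fits without any 1 of Tdo2high MFs CM replicates 1, 2 and 3 and Control CM replicates 1 and 3 (adjusted p from 0.0677 to 0.133). Tnfrsf1b, the other TNF receptor, had 61.5 ± 1.06 FPKM with Tdo2high MFs CM and 58.0 ± 1.09 FPKM with Control CM and was not called (0.08, adjusted p = 0.112 by limma). The ligand genes of the list, Tnf and Il1b included, stayed below 1 FPKM in every library, with Tnf at 0.07 FPKM at most and Il1b at 0.16 FPKM at most.

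Of 30 genes of the IKK complex, its adaptors, kinases and ubiquitin ligases, all were tested and 0 were called by limma in either direction. At an unadjusted p under 0.05 there were 1 higher (3.33%) and 2 lower (6.67%), beside 9.68% higher and 14.05% lower over all tested genes, and the list's median log2 fold change was 0.0004. Ikbkb, the catalytic IKK beta, averaged 17.8 ± 0.800 FPKM with Tdo2high MFs CM and 18.7 ± 0.477 FPKM with Control CM. Chuk, the catalytic IKK alpha, averaged 11.5 ± 0.377 FPKM with Tdo2high MFs CM and 11.2 ± 0.770 FPKM with Control CM. Ikbkg, the regulatory subunit NEMO, averaged 14.5 ± 0.576 FPKM with Tdo2high MFs CM and 13.0 ± 0.183 FPKM with Control CM, with no overlap (log2 fold change 0.14, adjusted p = 0.0627 by limma). Ikbkg passed under the median of ratios (adjusted p = 0.0494) and quantile normalization (adjusted p = 0.0453), while over its other alternatives it did not pass.

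Of 20 genes listed as other negative regulators, all tested, 2 rose, 3 fell and the rest were not called by limma, at a median log2 fold change of 0.0067. Over all tested genes limma called 3.35% higher and 4.06% lower. At an unadjusted p under 0.05 in limma 5 were higher (25%) and 3 lower (15%), beside 9.68% and 14.05% over all tested genes. The list is mixed, since Btrc and Fbxw11 encode parts of the ligase that sends IkB to destruction. Neither of these was called. The largest fall was that of Zfp36, whose product tristetraprolin destabilises cytokine mRNAs, at 7.39 ± 1.78 FPKM with Tdo2high MFs CM, against 10.9 ± 1.39 FPKM with Control CM (-0.51, adjusted p = 0.0413). Zfp36 lost its call in 9 of 16 alternatives, among them the fits without any 1 of Tdo2high MFs CM replicates 1 and 2 and the 3 Control CM libraries (adjusted p from 0.0505 to 0.134). Twist1, a transcription factor that represses NF-kB target genes in mice, fell to 23.0 ± 0.633 FPKM with Tdo2high MFs CM, against 26.9 ± 1.29 FPKM with Control CM (-0.21, adjusted p = 0.0135, and 0.0512 without Tdo2high MFs CM replicate 3). Pdlim2, a ubiquitin ligase that ends RelA activity in the nucleus, fell to 87.5 ± 0.895 FPKM with Tdo2high MFs CM, against 97.5 ± 1.97 FPKM with Control CM (-0.15, adjusted p = 0.00923), in all 16 alternatives. Cops5, a subunit of the COP9 signalosome, rose to 44.2 ± 0.777 FPKM with Tdo2high MFs CM, against 40.2 ± 0.833 FPKM with Control CM (0.14, adjusted p = 0.0256). Cops5 lost its call in 6 of 16 settings, including the fits without any 1 of Tdo2high MFs CM replicates 2 and 3 and Control CM replicates 1 and 3 (adjusted p from 0.0792 to 0.0945). Tank, a TRAF-binding adaptor, rose to 34.4 ± 0.185 FPKM with Tdo2high MFs CM, against 31.4 ± 0.924 FPKM with Control CM (0.13, adjusted p = 0.0374). Tank lost its call in 10 of 16, every fit without 1 library included (adjusted p from 0.0513 to 0.108). Neither Cops5 nor Tank was called with the replicate block (adjusted p = 0.05002 for Cops5 and 0.0689 for Tank).

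Of 34 target genes listed outside the members, 24 were tested, 5 rose and 3 fell by limma, and the median log2 fold change was -0.0038. Over all tested genes limma called 3.35% higher and 4.06% lower. At an unadjusted p under 0.05 in limma 7 targets were higher (29.2%) and 4 lower (16.7%), beside 9.68% and 14.05% over all tested genes. No test over the list was run. Nfkbib, Bcl3, Tnip1 and Ripk2, none of them called, also stand in the other lists. The most abundant targets, Csf1, Tnfaip2 and Psmb9, were not called either. Csf1 averaged 101.2 ± 0.616 FPKM with Tdo2high MFs CM and 101 ± 1.74 FPKM with Control CM (0.003, adjusted p = 0.958 by limma). Tnfaip2 averaged 85.1 ± 1.72 and 84.8 ± 2.15 FPKM in the same order (0.006, adjusted p = 0.926 by limma). Psmb9 averaged 73.5 ± 3.82 and 78.6 ± 5.89 FPKM (-0.09, adjusted p = 0.333 by limma). The neutrophil chemokine Cxcl5 rose to 7.48 ± 0.775 FPKM with Tdo2high MFs CM, against 4.86 ± 0.312 FPKM with Control CM (0.53, adjusted p = 0.00236). Lcn2, the iron-binding lipocalin 2, rose to 57.4 ± 1.98 FPKM with Tdo2high MFs CM, against 42.8 ± 5.43 FPKM with Control CM (0.42, adjusted p = 0.0095, and 0.0661 with no filter on low values). Lcn2 and Csf3, the gene of granulocyte colony-stimulating factor, are known as genes that need IkB zeta in other mouse cells. Nfkbiz, the gene of IkB zeta, was itself not called, and its part in these differences was not tested. Il6, Saa3, Ccl20 and Csf2, also in the target list, stayed below 1 FPKM in every library and could not be tested. Csf3 rose to 28.6 ± 0.826 FPKM with Tdo2high MFs CM, against 22.7 ± 1.41 FPKM with Control CM (0.32, adjusted p = 0.00274). Ier3, an early response gene tied to cell survival, rose to 49.6 ± 7.44 FPKM with Tdo2high MFs CM, against 36.6 ± 3.61 FPKM with Control CM (0.42, adjusted p = 0.0255). Ier3 lost its call in 5 of 16 settings, including the fits without Control CM replicate 1 (adjusted p = 0.0826) or replicate 3 (0.0806). Cxcl10 rose to 6.53 ± 0.743 FPKM with Tdo2high MFs CM, against 4.92 ± 0.411 FPKM with Control CM (0.34, adjusted p = 0.0277), a call lost in 7 of 16 settings, including the fits without any 1 of replicates 2 and 3 of either medium (adjusted p from 0.0651 to 0.0869).

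The 3 target genes that fell were Ccl5, Irf1 and Plau. Ccl5, a T cell chemokine, fell to 34.8 ± 0.966 FPKM with Tdo2high MFs CM, against 44.7 ± 2.48 FPKM with Control CM (-0.35, adjusted p = 0.00113). Irf1, a transcription factor shared by the interferon and NF-kB responses, fell to 56.9 ± 2.26 FPKM with Tdo2high MFs CM, against 66.3 ± 0.967 FPKM with Control CM (-0.22, adjusted p = 0.00462). Both calls held in all 16 alternatives. Plau, the urokinase plasminogen activator, fell to 71.1 ± 1.196 FPKM with Tdo2high MFs CM, against 78.2 ± 1.03 FPKM with Control CM (-0.14, adjusted p = 0.0173). The call of Plau ended without any 1 of Tdo2high MFs CM replicates 1 and 3 and Control CM replicate 1 (adjusted p from 0.0503 to 0.0617), and with no variance trend (0.0615).

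**Figure D4:**
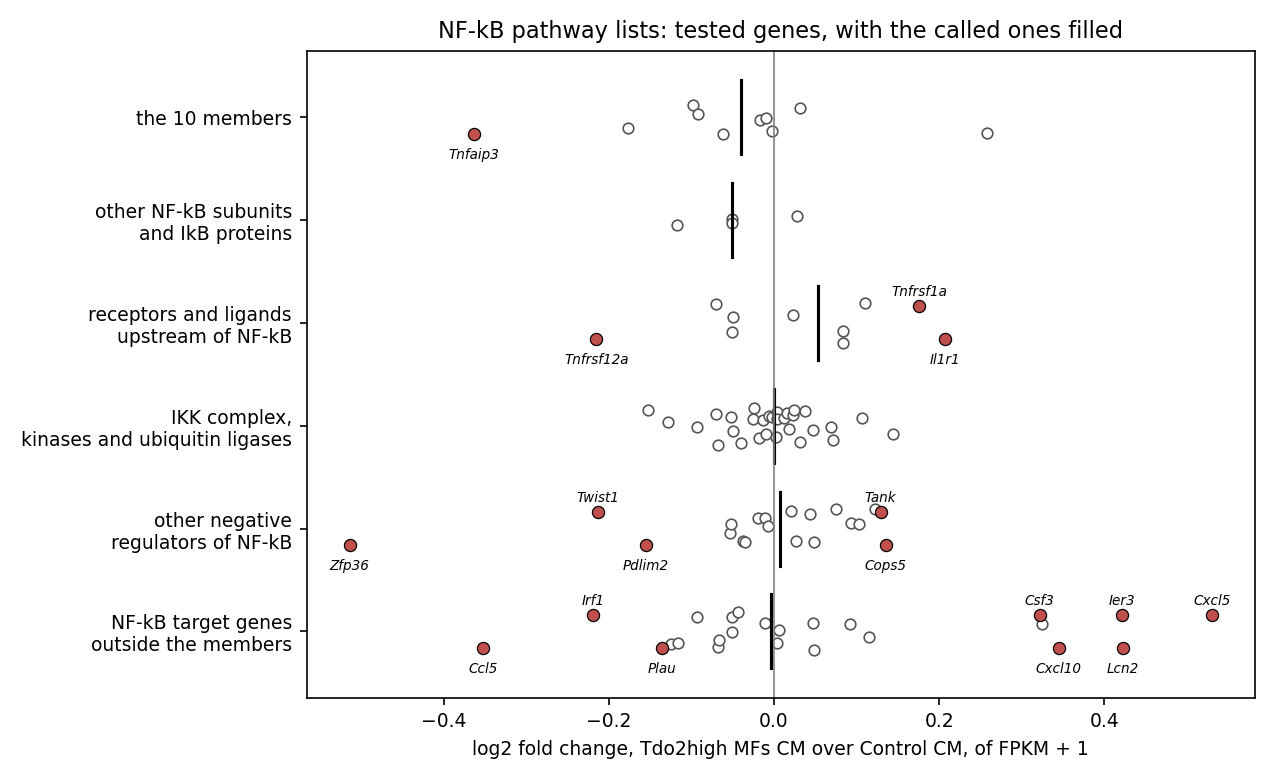
Log2 fold change (horizontal axis), Tdo2high MFs CM over Control CM, of every tested gene of the members and of the 5 pathway lists; filled red points are called and named, open points are not, black bars are list medians, and vertical scatter has no meaning. The 30 genes of the IKK and adaptor list lie between -0.15 and 0.14, and the target genes spread from -0.35 to 0.53. Nfkbib, Bcl3, Tnip1 and Ripk2 stand in the target list and also in another list.

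Genes whose levels followed those of the members across libraries were named as a description, over only 6 libraries that carry the difference between media. For Tnfaip3 they were Herpud2 (Pearson r = 0.997), Cystm1 (0.996) and Zfp217 (0.994). All 3 were lower in each Tdo2high MFs CM library, and Cystm1 was called (log2 fold change -0.28, adjusted p = 0.00158 by limma). For Nfkbia they were Zfp53 (0.980), Napsa (0.978) and Naip2 (0.975), none of which was called, at adjusted p = 0.830, 0.933 and 0.916 by limma. Genes picked in this way share the difference, or near equality, of the member they follow, so their calls are no separate result.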

How the data were processed

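PolyA RNA of 6 samples was copied with random hexamers and sequenced at BGI, per the labels' protocols. The authors deposited FPKM for 16426 genes, rounded to 2 decimals, per the file headers. The build was GRCm38, per the submitters' processing notes; the aligner and quantifier were not given in the sources used here. Since FPKM divides by the library total, a change in abundant genes shifts all others. A check of low values for steps of whole reads gave a mean distance to a whole multiple of 0.252 over 6414 values. With FPKM rounded to 2 decimals, this check cannot show whether such steps exist. No count model was used, and precision rests on the replicates.

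Groups came from sample titles. Values were tested as log2(FPKM + 1) with limma 3.58.1 in R 4.3.3 (intensity trend, two-sided, Benjamini-Hochberg over 10804 genes; 5622 left out by the filter of 1 FPKM in 3 libraries). With 3 against 3, an exact permutation test of 1 value cannot go below 0.1, so none is given. Members and lists were chosen with earlier results of these data known. Genes were named by a rule: all members, up to 4 called and 3 abundant genes per list, and the 3 genes most correlated with Tnfaip3 and with Nfkbia; some abundant ones are not written out. Tank, Cxcl10, Csf3, Plau, Irf1, Rel, Ikbkb, Chuk, Ikbkg and low ligand genes were named after their values were seen. The planned protein comparison was not run. Alternatives covered pseudocounts, filters, scalings, variance models, a replicate block and leaving out each library. Figures were drawn with matplotlib 3.10.9.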

Additional observations from a re-analysis of the deposited data

How the results depend on the processing

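The fall of Tnfaip3 was called in all 16 alternatives, and the count of members called lower was 1 in each. The count called higher was 0, except in the fits without 1 library, where it ran from 0 to 1 (Nfkbiz, without Tdo2high MFs CM replicate 2). Over all tested genes, 362 were higher and 439 lower. With no filter on low values these were 199 and 195, with more genes tested, and without a variance trend 277 were lower; the cause of the last was not tested. Without 1 library, 209 to 293 were higher and 186 to 266 lower, with fewer samples. The split moved to 455 higher and 367 lower under the median of ratios; TPM gave 320 higher and 505 lower. Fits with the replicate block gave 296 higher and 326 lower. The labels do not say whether same-numbered libraries were prepared together. Deviations of same-numbered libraries correlated at -0.023, -0.0305 and 0.018. They were not read as pairs, and the block changed no member's call.

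Uncalled genes near 0 changed sign. The median of ratios moved the median of all tested genes too, to -0.00053 from -0.014, a shift about as large as that of Nfkbia and Nfkbie. Nfkbia had 0.0046 under the median of ratios and -0.045 to 0.034 without 1 library. Nfkbie had 0.011 under the median of ratios, 0.012 under quantile normalization and -0.046 to 0.026 without 1 library. Without 1 library Bcl3 ran from -0.11 to 0.059, Rel from -0.02 to 0.075, Zfp53 from -0.11 to 0.027, Napsa from -0.035 to 0.068 and Naip2 from -0.018 to 0.053. The rounding of FPKM and the unknown depth limit what can be said of genes as weak as Rel.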

Other observations

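Ratios between feedback genes within a library were taken after the values of the members had been seen, and they carry no test. The level of Tnfaip3 over that of Nfkbia was 0.161, 0.180 and 0.166 in Tdo2high MFs CM libraries 1 to 3, against 0.239, 0.213 and 0.228 in Control CM libraries 1 to 3. The level of Nfkbiz over that of Nfkbia was 0.365, 0.336 and 0.402 with Tdo2high MFs CM, against 0.305, 0.278 and 0.314 with Control CM. Neither ratio overlapped between media, and they differed in opposite directions. As Nfkbia had nearly equal means in both media, these ratios largely restate the differences of Tnfaip3 and Nfkbiz given above. The summed level of Nfkbia and Nfkbie over that of the 5 subunit genes was 0.379 ± 0.0184 with Tdo2high MFs CM and 0.357 ± 0.0119 with Control CM (SD, n = 3 each), with overlapping groups. The level of Relb over that of Rela was 0.174 ± 0.0095 with Tdo2high MFs CM and 0.193 ± 0.0148 with Control CM, and these overlapped too.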
